A study of Mus musculus with 4 samples.

Results

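The genes described here encode the subunits of the receptors for glutamate, GABA and glycine, the fast transmitters of the central nervous system. They were chosen by symbol: the AMPA (Gria), kainate (Grik) and NMDA (Grin) receptor genes, the metabotropic glutamate receptor genes (Grm), the GABA-A (Gabr) and GABA-B (Gabbr) receptor genes and the glycine receptor genes (Glra and Glrb). The symbols matched 50 of the 21822 gene units in the tables, namely 4 AMPA, 5 kainate, 7 NMDA, 8 metabotropic glutamate, 19 GABA-A, 2 GABA-B and 5 glycine receptor genes. RNA came from aggregates of mouse iMN-ESCs, a single C57BL/6 embryonic stem cell line that carries a doxycycline (Dox) inducible fusion of the motor neuron factors Isl1 and Lhx3. All aggregates first grew for 2 days in stem cell medium with LIF. They then spent 2 days in 0.5 µM all-trans retinoic acid, which stayed on for a final 2 to 3 days in which 2 samples also received 2 µg/mL Dox and the other 2 did not. The comparison of the groups asks how the receptor classes differ once the fusion is switched on. No library came from cells given Dox without the transgene, so what Dox does by itself and what the fusion does cannot be told apart.

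AMPA, kainate and NMDA receptors are cation channels of 4 subunits that open on binding glutamate, and metabotropic glutamate receptors act through G proteins. GABA-A and glycine receptors are chloride channels of 5 subunits, and the GABA-B receptor is a G protein coupled pair of Gabbr1 and Gabbr2. Spinal motor neurons receive glutamate as well as GABA and glycine inputs, and which subunit genes a neuron transcribes sets how its receptors gate, what they conduct and where they are held. In developing neurons the subunit mixture changes with age.

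Counts assigned to genes summed to 28239859 and 24020832 without Dox and 37311037 and 53903936 with Dox. Values are counts per 1000000 (CPM) after scaling between libraries, and a gene is called here when its adjusted p was under 0.05 in edgeR's quasi-likelihood test. The switched genes followed the labels: Isl1 stood at 3.08 and 5.83 CPM without Dox against 104 and 82.4 CPM with Dox, and Lhx3 at 0.404 and 0.286 against 125 and 108 CPM. None of 6 pluripotency markers was called. Klf4, which other cells also express, was at 64.2 to 90.1 CPM, Dppa5a at 5.5 to 7.08, Zfp42 at 2.61 to 4.96, and Pou5f1 and Nanog at 0.311 to 0.933 CPM. Esrrb was at 1.47 and 1.14 CPM without Dox against 2.41 and 4.23 CPM with Dox (log2 change 1.35, not called). Of 14283 genes tested, 1.23% were called higher with Dox and 0.056% lower. These are bulk samples of mixed aggregates, in which fewer cells of a type and less RNA per cell cannot be told apart. Of 12 neuron markers 2 were called higher and none lower, and 8 lay below 0 on the log2 scale. Their summed level was 637 to 831 CPM without Dox and 1260 to 1520 CPM with it, of which the neurofilament gene Nefl alone made 166 to 277 and 659 to 900 CPM. None of 8 progenitor markers was called, and all 8 lay below 0, from -1.46 (Hes5) to -0.07 (Vim). Their sum was 1770 to 2110 CPM without and 1400 to 1700 CPM with Dox. Its largest members were Vim, at 633 to 773 CPM, and Mki67, at 513 to 748 CPM. Of 9 glial markers 1 was called (Aqp4, from 0.294 and 0.408 to 5.96 and 8.47 CPM), while Gfap, Sox10 and S100b stayed at or below 0.408 CPM in each library. Of 7 mesenchyme markers 2 were called (Col1a1 and Col3a1), and the list summed to 49.8 and 61.1 CPM without and 136 to 155 CPM with Dox. Of 5 endothelial markers 1 was called (Erg). None of 8 endoderm markers was called, and their sum was 1560 and 1790 CPM without and 1510 and 1790 CPM with Dox. That sum lay above the neuron marker sum in every library, with Dab2 at 647 to 809 CPM and Gata4 at 553 to 644 CPM. The part of such shifts in the values below was not tested.

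Across the receptor genes, 3 rose and 1 fell with Dox. The risers were Gria3 (an AMPA subunit), Grin2c (an NMDA subunit) and Grm4 (a metabotropic receptor), and the gene that fell was Glra1 (a glycine receptor subunit). The filter on low counts kept 29 of the 50 genes (58%, against 65.5% of all gene units), so the called genes were 10.3% of those tested in the upward and 3.45% in the downward direction, beside 1.23% and 0.056% over all genes (1.28% in either direction). Groups did not overlap in 23 of the 29 (79.3%, beside 38.8% of all genes tested), with 15 higher and 8 lower with Dox, against 18.9% and 19.9% of all genes. At an unadjusted p under 0.05 there were 12 higher and 5 lower, 58.6% of the 29 beside 10.3% of all genes (6.26% higher and 4.02% lower). With limma-voom 4 were called higher and 1 lower, beside 1.18% and 0.084% of all genes. With DESeq2 8 were called higher and 2 lower, beside 2.82% and 0.812%. Of the genes tested, 4 had entered only through their libraries with Dox (Grik1 and Grm6 among them) and 3 only through those without (Grin3a, Grm8 and Glra1), so these had to differ and the shares are given as a description. The median log2 fold change was 0.37 over the 29 genes and -0.01 over all genes.

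By class, the median log2 fold change of the genes tested was 0.04 for 3 AMPA, 0.38 for 5 kainate, 0.13 for 5 NMDA, 0.68 for 4 metabotropic glutamate, 0.05 for 8 GABA-A and 0.43 for 2 GABA-B receptor genes. Levels of different genes are compared per kb of exon. Summed over its members on that scale, each of the 7 classes was higher in both libraries with Dox than in either without. For the metabotropic genes this rests on the length used for Grm4: in CPM not divided by length their sums overlapped, at 23.5 and 21.1 without Dox against 29.5 and 22.3 with Dox. The summed NMDA level was 1.25 to 1.41 CPM per kb without Dox and 5.26 to 8.12 with it, the most unequal of the classes, and Grin2c made most of it with Dox. The metabotropic sum was 4.83 to 5.40 without and 6.57 to 8.58 with Dox, and the GABA-A sum 2.73 to 3.32 and 3.48 to 4.25. The GABA-B sum was 11 to 14.1 without and 15.8 to 17.7 with Dox, nearly all of it Gabbr1, and the glycine receptor sum 3.45 to 3.48 and 3.98 to 4.63, nearly all of it Glrb.

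**Figure D1:**
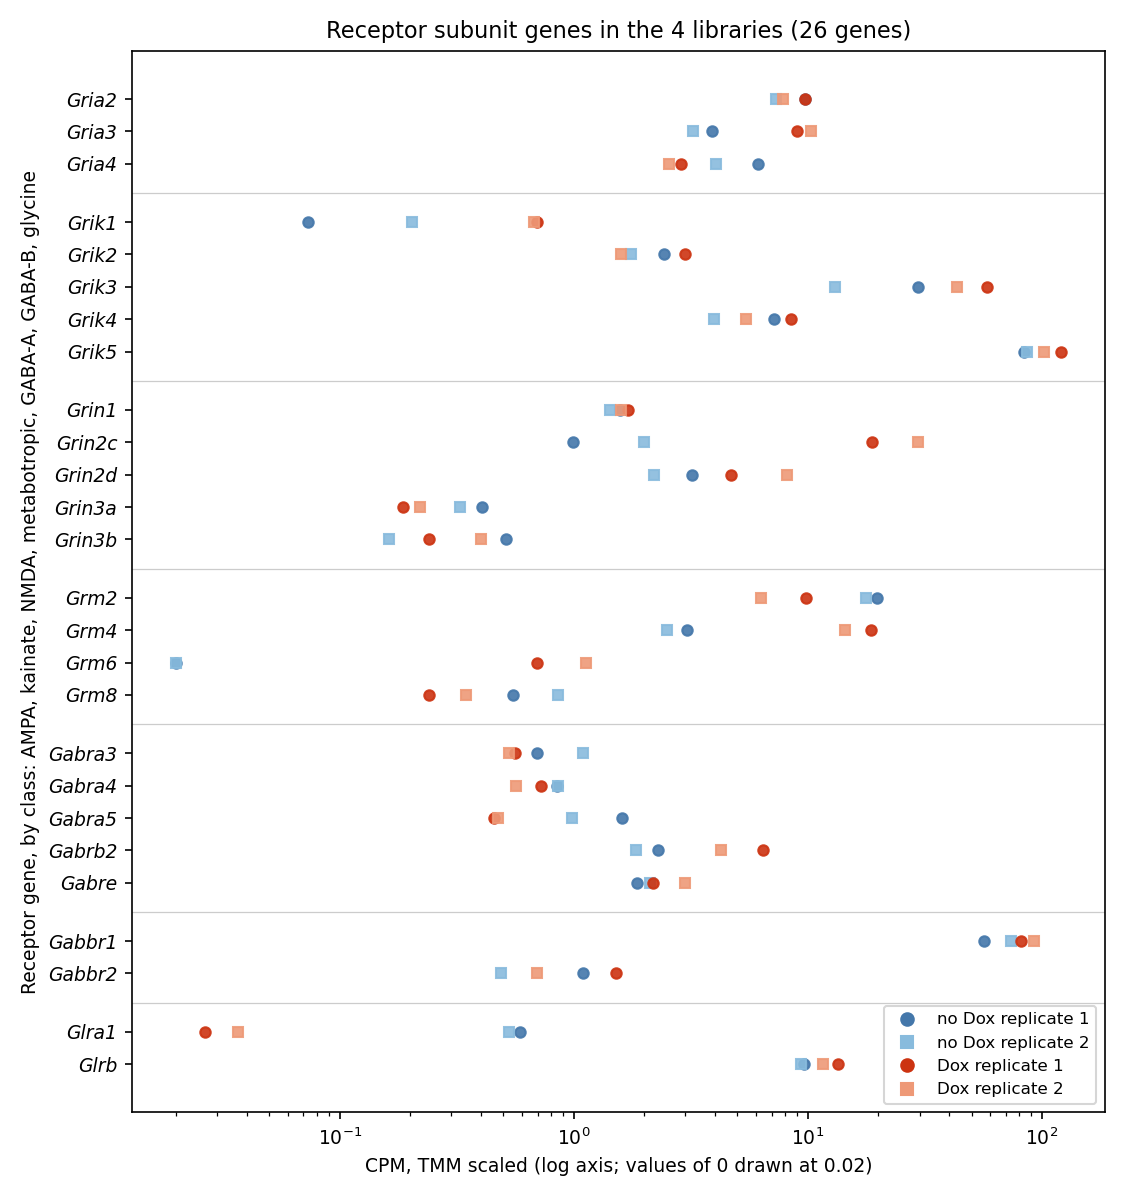
CPM (log axis) of 26 of the 29 receptor genes that passed the filter on low counts, in each of the 4 libraries, arranged by class. Grik5 and Gabbr1 lay above 50 CPM in every library, and Grm6 had no count in either library without Dox (drawn at 0.02 CPM).

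**Figure D2:**
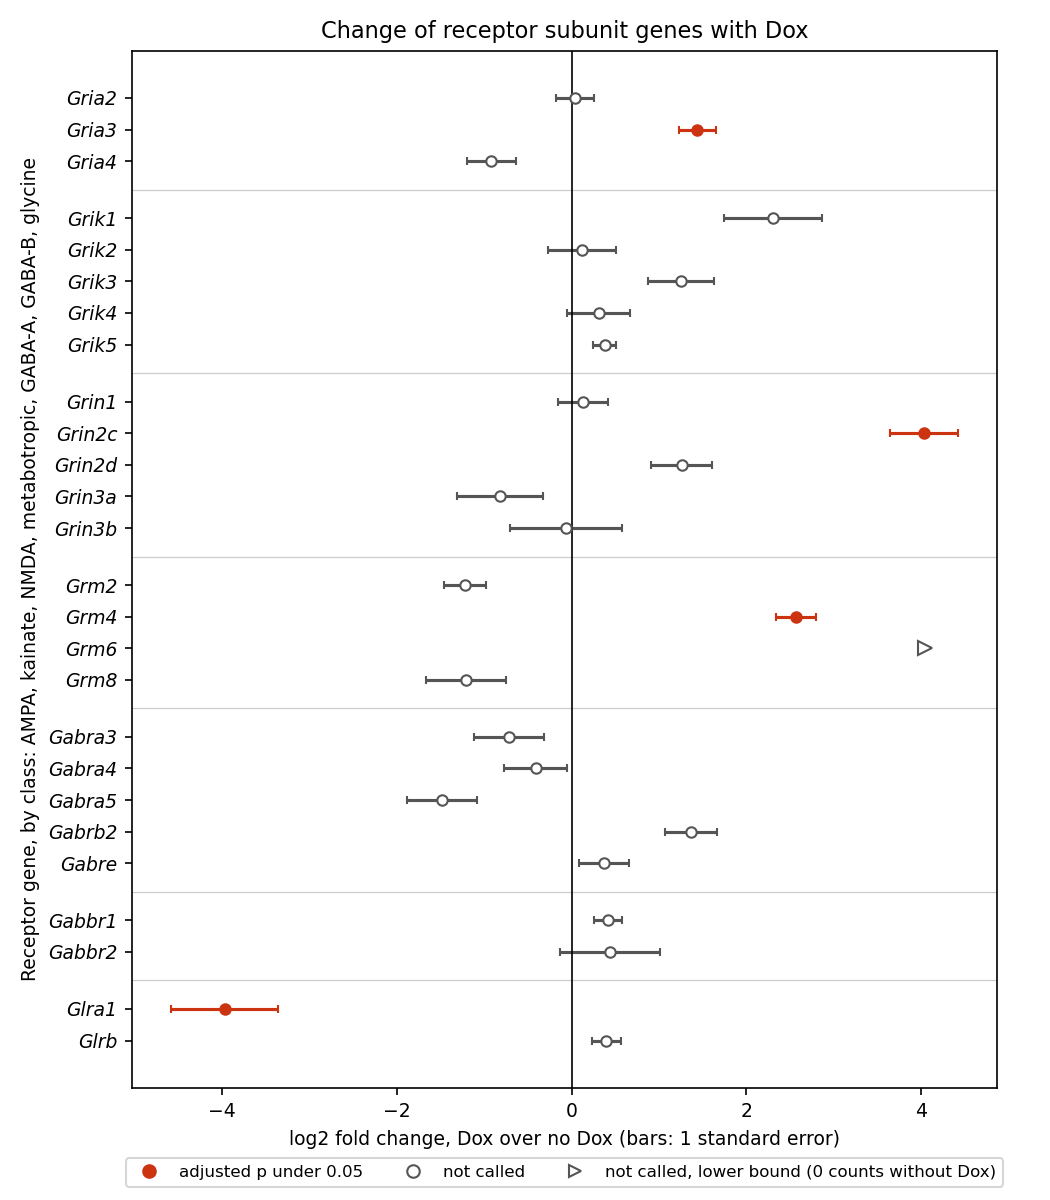
Log2 fold change with Dox for the same 26 genes, with 1 standard error on each side. Filled points passed an adjusted p of 0.05. Grin2c, Grm4 and Gria3 lie to the right and Glra1 to the left, while Grm6 is drawn as a lower bound because it had 0 counts without Dox.

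The largest called rise was that of Grin2c, which encodes the GluN2C subunit of NMDA receptors. It stood at 0.991 and 2.00 CPM in the libraries without Dox and at 18.7 and 29.6 CPM in those with Dox, a log2 change of 4.03 with an SE of 0.39 (adjusted p = 0.00939). The groups lay far apart, and all 15 parts of the gene were higher on average with Dox. The annotated gene Gm25837, which has no unit in the tables, shares 91 bases with its exons. The closest relative in the assay, Grin2d, which encodes GluN2D, was at 3.19 and 2.20 CPM without Dox against 4.71 and 8.18 CPM with Dox (log2 change 1.26 with SE 0.35, adjusted p = 0.247). Grin2d was higher in both libraries with Dox but did not pass. Among the alternatives it passed in DESeq2 (adjusted p = 0.0389) and in the edgeR fit with a replicate block (0.00656). With 1 library left out at a time its change was 0.82 to 1.60. Its exons share 643 bases with Gm45441.

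To show what lies at the start of the called gene with the steepest rise, and of the gene that had no count without Dox (Grm6, below), the 250 bases before the annotated start are printed from RefSeq on GRCm38.p6, at chr11:115267244-115267493 on the minus strand for Grin2c and chr11:50850435-50850684 on the plus strand for Grm6. Capitals mark TAAT on either strand, the core that homeodomain proteins bind.
Grin2c: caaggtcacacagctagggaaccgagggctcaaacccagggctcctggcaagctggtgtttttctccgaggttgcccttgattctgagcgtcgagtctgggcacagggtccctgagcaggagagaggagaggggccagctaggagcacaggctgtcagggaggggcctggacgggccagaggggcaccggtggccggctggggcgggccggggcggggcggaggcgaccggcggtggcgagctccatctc
Grm6: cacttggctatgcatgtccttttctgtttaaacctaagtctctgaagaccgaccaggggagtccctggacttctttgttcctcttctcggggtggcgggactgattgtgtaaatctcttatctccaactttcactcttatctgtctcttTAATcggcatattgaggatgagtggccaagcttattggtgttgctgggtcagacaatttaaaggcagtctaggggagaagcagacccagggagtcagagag
The Grin2c window is rich in G and C (68.8%) and holds no TAAT, and the Grm6 window (47.6% G and C) holds 1. Neither holds TAATTA, which contains TAAT on both strands. Of 32851 such windows over all genes 54.9% hold TAAT and 4.8% hold TAATTA. Of the receptor genes 36 had 43 windows in the table, of which 15 held TAAT and 1 held TAATTA.

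None of the other 4 NMDA receptor genes tested was called by edgeR. Grin1, the subunit that every conventional NMDA receptor contains, was at 1.58 and 1.43 CPM without Dox against 1.71 and 1.59 CPM with Dox (log2 change 0.13 with SE 0.29, adjusted p = 0.959). Per kb of exon its level was 0.327 to 0.361 CPM without and 0.365 to 0.392 CPM with Dox. Grin2c per kb went from 0.202 and 0.408 to 3.83 and 6.05 CPM, so its RNA went from about the level of Grin1 to well above it in both libraries. Grin1 shares 1307 bases of exon with the antisense gene Grin1os, and use of strand in the counting is not given in the sources used here. Grin2b, the main GluN2 gene of the embryonic forebrain, had 5 and 0 counts without and 3 and 0 with Dox, and Grin2a had 3 and 2 against 11 and 13; neither passed the filter. The counting ratio of Grin2a was 2.70 (95% interval 1.01 to 9.06). Grin3a and Grin3b, the glycine-binding subunits that lower calcium entry, were tested at 0.163 to 0.514 CPM and not called, and 1046 bases of Grin3b are shared with Tmem259.

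Within the 4 GluN2 genes, Grin2c took a larger share of the RNA per kb in both libraries with Dox than in either without. Grin2d held 70.0% and 48.7% of their summed level without Dox and 18.2% and 19.8% with it. Grin2c held 24.1% and 49.0% without and 80.2% and 79.5% with Dox. Without Dox, Grin2d led in replicate 1 and the pair was nearly equal in replicate 2, on 27 and 49 counts of Grin2c and 87 and 54 of Grin2d.

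Among AMPA receptor genes, Gria3 rose, Gria2 differed by less than its error and Gria4 was lower without passing the test. Gria3 encodes GluA3. It had 3.89 and 3.22 CPM without Dox against 9.01 and 10.3 CPM with Dox, a log2 change of 1.44 with an SE of 0.21 (adjusted p = 0.0441). All 16 of its parts were higher on average with Dox. The part at its 3' end held 10.4% and 50.6% of its counts without Dox and 20.2% and 34.3% with Dox. With that part removed (an alternative added once the data had been seen) the values were 3.49 and 1.59 against 7.20 and 6.77 CPM, the change was 1.46 and the call was lost (adjusted p = 0.264). With that part alone as the count it was lost too (log2 1.46, adjusted p = 0.464).

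Gria2 encodes GluA2, the subunit whose edited form keeps AMPA receptors from passing calcium. It was at 9.69 and 7.34 CPM without Dox against 9.68 and 7.85 CPM with Dox (log2 change 0.04 with SE 0.22, adjusted p = 0.991), and the groups overlapped. Gria4, which encodes GluA4, was at 6.13 and 4.04 CPM without Dox against 2.86 and 2.54 CPM with Dox (log2 change -0.92 with SE 0.28, adjusted p = 0.304). All 19 parts of Gria4 were lower on average with Dox. Gria1, which encodes GluA1, had 4 counts without and 30 with Dox, which is 4.22 times the level without (95% counting interval 1.49 to 16.5), and was too low for the test.

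By RNA per kb, the 3 AMPA genes tested were close to equal without Dox. Gria2 held 34.5% and 35.0%, Gria3 28.0% and 31.0% and Gria4 37.2% and 32.8%. With Dox Gria3 held 54.3% and 62.1%, Gria2 28.9% and 23.4%, and Gria4 14.6% and 12.9%. The share of Gria2 was thus lower in both libraries with Dox while its level was not. The summed level of the class was 2.00 to 2.68 CPM per kb without and 3.20 CPM per kb in each library with Dox.

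**Figure D3:**
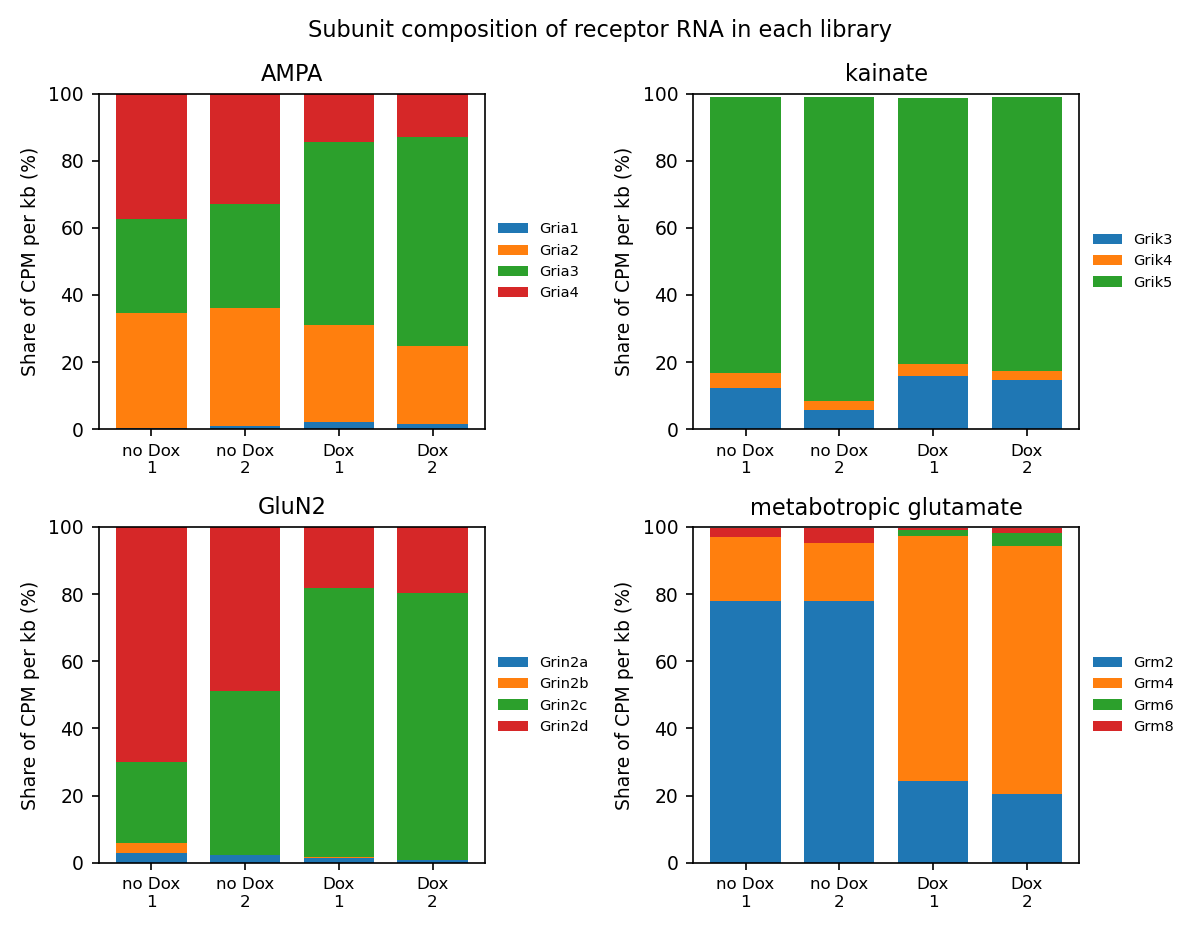
Share of each subunit gene in the summed CPM per kb of its set, one bar per library, for the AMPA, kainate, GluN2 and metabotropic glutamate genes; genes under 1% in every library are not drawn. Gria3, Grin2c and Grm4 take larger shares in both libraries with Dox, while Grik5 leads the kainate genes in all 4.

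Kainate receptor genes had the highest summed level per kb of the 7 classes in each library, 25.4 to 27.1 CPM per kb without and 33.2 to 40.4 with Dox. None of the 5 was called by edgeR or limma-voom. All 5 lay above 0, with a median of 0.38, and 3 were higher at an unadjusted p under 0.05, beside 6.26% of all genes. Of these, Grik1 had entered the test only through its libraries with Dox, so it had to differ. DESeq2 called Grik3 only. Grik5, which encodes GluK5, a subunit that forms channels only together with GluK1 to GluK3, made up 79.2% to 90.7% of the class. It was at 83.8 and 86.5 CPM without Dox against 120 and 102 CPM with Dox (log2 change 0.38 with SE 0.13, adjusted p = 0.333), with no overlap.

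Grik3, which encodes GluK3, one of the possible partners of GluK5, was the next in level. It stood at 29.6 and 13.0 CPM without Dox against 58.0 and 43.5 CPM with Dox (log2 change 1.25 with SE 0.38, adjusted p = 0.284). Its libraries without Dox differed more than 2-fold from each other. The part at its 3' end held 67% to 78.1% of its counts. With that part removed (the added alternative used for Gria3) the groups overlapped, at 9.76 and 3.22 CPM without Dox against 17.7 and 9.53 with Dox. The change was then 1.06 (edgeR adjusted p = 0.838). Grik3 passed with DESeq2 (adjusted p = 0.00919). With 1 library left out at a time its change was 0.78 to 1.98. The largest came without no Dox replicate 1, the higher of its group. Grik1, which encodes GluK1, had 7 counts without and 63 with Dox, which is 5.06 times the level without (95% counting interval 2.32 to 13.1, adjusted p = 0.179). In CPM it was 0.0734 and 0.204 against 0.695 and 0.677. Grik2 and Grik4 overlapped between groups, with log2 fold changes of 0.12 and 0.31.

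Metabotropic glutamate receptors fall into groups by coupling: some, such as Grm5, signal through phospholipase C, while Grm2 and Grm3, and Grm4, Grm6, Grm7 and Grm8, lower cyclic AMP. Only members of the latter kinds passed the filter on low counts, and the leading one differed between the groups. Grm4, which encodes a presynaptic receptor in much of the brain, rose with Dox to 18.6 and 14.4 CPM, against 3.05 and 2.49 CPM without it (log2 change 2.57 with SE 0.23, adjusted p = 0.00741). Its 9 parts were all higher on average with Dox. Grm2 was at 19.8 and 17.7 CPM without Dox against 9.82 and 6.33 CPM with Dox (log2 change -1.22 with SE 0.24, adjusted p = 0.103).

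Grm2 was therefore lower in both libraries with Dox without passing the test. It passed in DESeq2 (adjusted p = 0.000516) and in edgeR with no filter on low counts (0.0379). With 1 library left out at a time its change was -1.57 to -0.91. Its exons share 448 bases with Gm28111. Grm2 held 78.0% and 77.9% of the summed metabotropic level per kb without Dox, and 24.3% and 20.5% with it. Grm4 held 19.0% and 17.3% without and 72.9% and 73.8% with Dox. The exon length used for Grm4 was 2.98 kb, while its longest annotated transcript has 4.61 kb; with the latter its share with Dox was 63.5% and 64.6%.

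Grm6, the glutamate receptor of retinal ON bipolar cells, had no count in the libraries without Dox and 26 and 62 counts with Dox. Against a floor of 3 counts over the group, it was at least 16.5-fold higher with Dox. It missed the threshold of edgeR's test (adjusted p = 0.06). The same test also missed with DESeq2 size factors (0.0621) and with the largest part as the count (0.0847). It passed with limma-voom (0.0125), DESeq2 (0.00151), library totals as the only scaling (0.0447) and no filter (0.0142). Grm6 entered the main test only through its libraries with Dox, so these passes are no separate support for a rise. Its 88 counts were spread over all 11 parts, with 57.7% and 38.7% in the largest. Its exons share 296 bases with Gm12660. At 0.695 and 1.13 CPM it remained a minor member of the class, at 1.87% and 3.99% of the level per kb with Dox. Grm8 was at 0.55 and 0.857 CPM without Dox against 0.241 and 0.348 CPM with Dox (log2 change -1.21 with SE 0.46, adjusted p = 0.437). Grm3, Grm5 and Grm7 had 0 to 4 counts in each library.

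**Figure D4:**
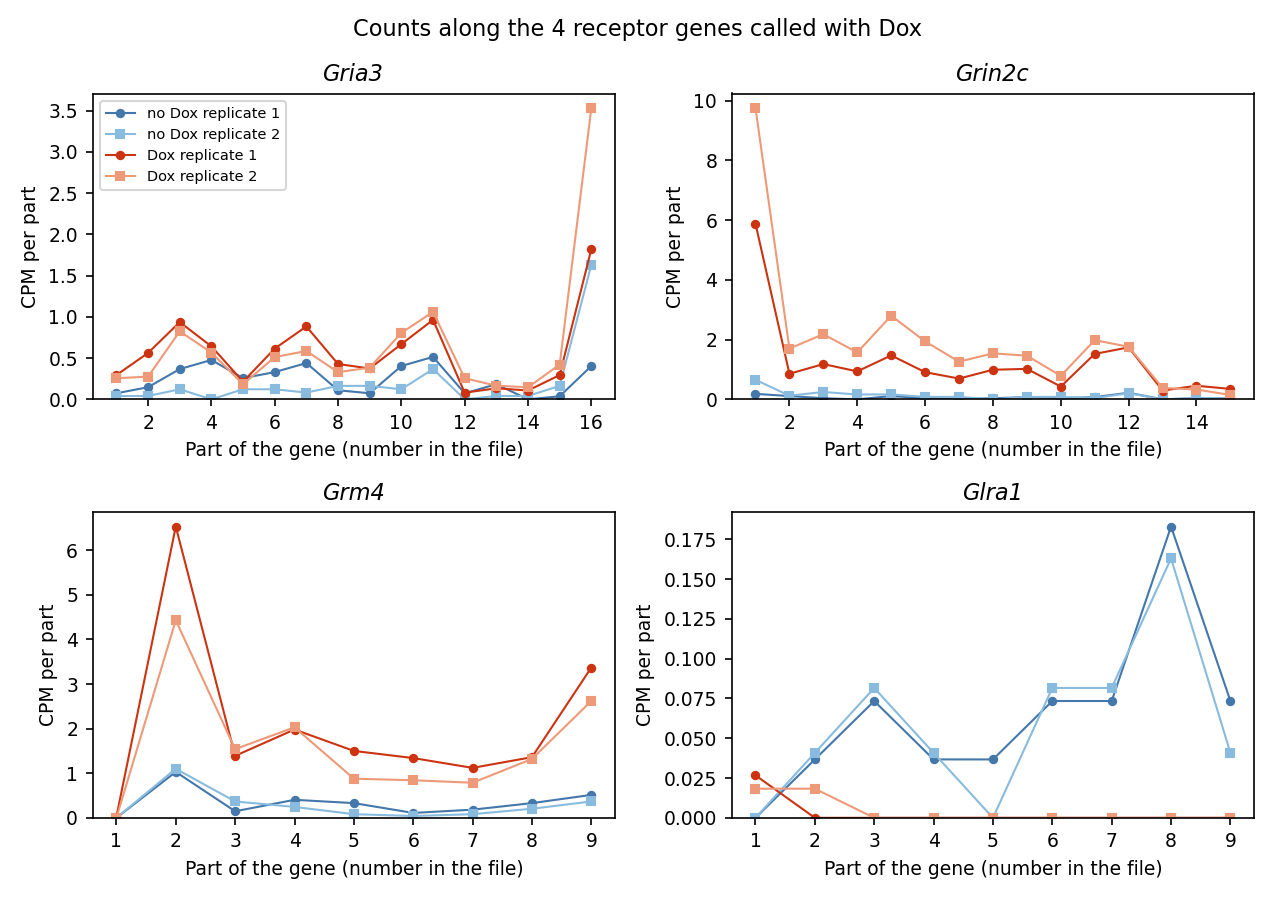
CPM of each numbered part along Gria3, Grin2c, Grm4 and Glra1, one line per library. A part is a stretch of exon as the count tables divide the gene. In Gria3, Grin2c and Grm4 the difference runs along the gene, the last part of Gria3 is its highest in 3 of the 4 libraries, and Glra1 has its few counts without Dox in 8 of 9 parts.

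Receptor RNA was also unequal along the transcript between replicate numbers, which bears on genes with long 3' parts. In 16 receptor genes with at least 30 counts in every library, the part at the 3' end took a larger share in replicate 2 than in replicate 1 in 14 genes without Dox and in 15 with Dox. In 14 of the 16 it was also the largest part. This difference followed the replicate number in both groups, and its part in the values was not tested beyond leaving out the largest part.

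None of the 8 GABA-A receptor genes that could be tested was called by edgeR or limma-voom. At an unadjusted p under 0.05 there were 3 higher and 1 lower, beside 6.26% and 4.02% of all genes. Some of the 3 had entered the test only through their libraries with Dox and had to differ. The median log2 fold change of the 8 genes was 0.05, with 4 above and 4 below 0. The alpha subunits shape affinity and the binding site for benzodiazepines, the beta subunits complete the GABA site, and a gamma subunit anchors most receptors at synapses. Levels were low: no member passed 7 CPM in any library.

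Gabra5, which encodes an alpha subunit of extrasynaptic receptors abundant in embryonic neurons, was lower without passing the test, at 1.61 and 0.979 CPM without Dox against 0.455 and 0.476 CPM with Dox (log2 change -1.48 with SE 0.40, adjusted p = 0.231). All 10 parts of Gabra5 were lower on average with Dox, and 148 bases of its exons are shared with Gm9962.

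Of the alpha subunit RNA per kb, Gabra5 held 56.4% and 36.9% without Dox and 15.4% and 21.2% with it. Gabra3 and Gabra4 were lower with Dox in both libraries, with log2 fold changes of -0.71 and -0.41 that did not pass. Gabra2 had 1 to 6 counts in each library. Gabra6, known from cerebellar granule cells, had 0 counts in all 4 libraries, where 3 counts, the limit that a count of 0 allows, correspond to 0.0549 to 0.122 CPM.

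Among beta subunits, Gabrb2 was at 2.28 and 1.84 CPM without Dox against 6.42 and 4.26 CPM with Dox (log2 change 1.37 with SE 0.30, adjusted p = 0.137). It passed in DESeq2 (adjusted p = 0.0117). With 1 library left out at a time its change was 1.05 to 1.66. Its 3' part held 69.4% to 85.4% of its counts. Gabrb1 had at most 2 counts in a library.

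Of the remaining GABA-A genes, Gabre, which encodes the epsilon subunit, led the gamma, delta and epsilon genes with 76.1% to 85.2% of their level per kb and had a log2 fold change of 0.37. Gabrg1, Gabrg3, Gabrd, Gabrp, Gabrq and the rho subunit genes Gabrr1, Gabrr2 and Gabrr3 had 0 to 7 counts in each library.

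The GABA-B receptor genes were present at very unequal levels. Gabbr1 was at 56.6 and 73.4 CPM without Dox against 81.7 and 92.2 CPM with Dox (log2 change 0.42 with SE 0.16, adjusted p = 0.43), with all 23 parts higher on average with Dox. Gabbr2, which brings Gabbr1 to the surface and couples to the G protein, was at 1.10 and 0.49 CPM without Dox against 1.52 and 0.695 CPM with Dox (log2 change 0.44 with SE 0.57, adjusted p = 0.901). The Gabbr2 groups overlapped, with replicate 1 above replicate 2 in both. Per kb, Gabbr1 stood at 10.8 to 17.6 CPM and Gabbr2 at 0.0851 to 0.265 CPM. None of the 3 tools called either gene, and Gabbr1 alone had an unadjusted p under 0.05.

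Among glycine receptor genes Glra1 fell, from a low level to almost none. It entered the test only through its libraries without Dox, so its call is no separate support for the fall. Glra1 encodes the alpha subunit of adult spinal glycine receptors. It had 16 and 13 counts without Dox and 1 and 2 with Dox, or 0.587 and 0.530 against 0.0267 and 0.0366 CPM. The ratio of Dox to no Dox was 0.0582 (95% counting interval 0.0113 to 0.188), and the fitted log2 change was -3.97 with an SE of 0.61 (adjusted p = 0.0487). The call was lost with DESeq2 size factors in the same test (adjusted p = 0.0502), without the largest part (0.145) and without any one of the 4 libraries (0.0532 to 0.118), and Glra1 was too low to enter the tests at a mean of 1 CPM or more or on the largest part. The direction was the same wherever it was tested. Gm12236 shares 141 bases with its exons.

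Glrb, the beta subunit that ties glycine receptors to the scaffold protein gephyrin, was by far the most abundant glycine receptor gene. It was at 9.58 and 9.38 CPM without Dox against 13.4 and 11.6 CPM with Dox (log2 change 0.40 with SE 0.17, adjusted p = 0.525). Its level per kb was 3.10 to 4.42 CPM, against at most 0.246 CPM for any alpha subunit gene in any library. Glra4 had 8 counts without and 25 with Dox, which is 1.76 times the level without (95% counting interval 0.768 to 4.51). Glra2, the embryonic alpha subunit gene, and Glra3 had at most 3 counts in a library. The median of the 2 tested genes, -1.79, lies between a gene that fell and one that was not called.

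**Figure D5:**
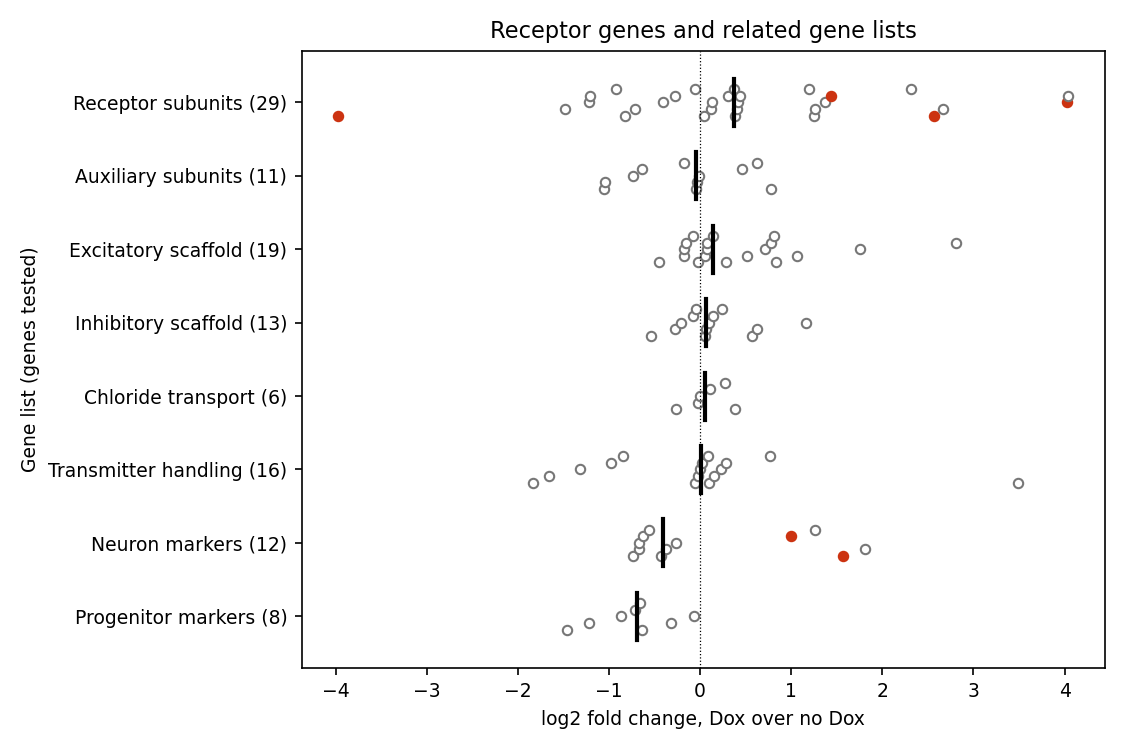
Log2 fold change with Dox of each tested gene, by list, with the median of each list as a bar and called genes filled; Grm6 is drawn at its lower bound. The receptor genes spread from -3.97 to at least 4.04 and hold 4 called genes, while the 5 lists of receptor partners and transmitter genes hold none. The lowest 2 lines are the neuron and progenitor markers.

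Genes that hold, modify or serve these receptors were described by 5 lists of 72 genes, of which 64 were tested. None was called by edgeR or limma-voom, while DESeq2 called 4 higher (Abat, Camk2b, Dlg2 and Shank2) and 1 lower (Slc1a2), beside 2.82% and 0.812% of all genes. At an unadjusted p under 0.05 there were 12 higher and 8 lower of the 64 in edgeR, beside 6.26% and 4.02% of all genes. The medians of the lists lay between -0.04 and 0.14, while single genes ran from -1.83 to 3.49. The genes at both ends had entered the test only through the group in which they were higher. So had Dlg2, at 0.257 and 0.204 CPM without Dox against 1.2 and 2.05 CPM with it. Such genes had to differ, so the counts and the range are given as a description.

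Of 19 tested genes of the excitatory postsynaptic scaffold, none was called, 8 were higher at an unadjusted p under 0.05 and 0 lower, again beside 6.26% and 4.02% of all genes. Its most abundant members were Dlg1, at 181 to 220 CPM (log2 fold change 0.05), and Dlgap4, at 152 to 178 CPM (log2 fold change -0.18). Of 11 auxiliary subunits of AMPA and kainate receptors none was called, with 1 higher and 3 lower at an unadjusted p under 0.05. Neto2, a kainate receptor partner, was at 20.7 to 22.6 CPM and Cacng7, a regulator of AMPA receptors, at 13.5 to 18.5 CPM, with log2 fold changes of -0.03 and -0.01. Of 13 genes of the inhibitory scaffold and GABA receptor partners none was called, with 2 higher and 1 lower at an unadjusted p under 0.05. The largest were Gabarap, at 191 to 237 CPM, and Nlgn2, at 143 to 167 CPM.

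The 6 chloride transporter and channel genes had no call and none under an unadjusted p of 0.05. Clcn3 had a log2 fold change of 0.00 and Slc12a7 of 0.11. Of 16 genes that make or move the transmitters, none was called, with 2 higher and 4 lower at an unadjusted p under 0.05. Glul, which turns glutamate into glutamine, was at 240 to 277 CPM, with a log2 fold change of 0.10.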

How the data were processed

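The 4 RNA-seq libraries (Illumina TruSeq, per the labels' protocols) form 2 groups of 2, biological duplicates by the design text. TopHat and build mm9 are listed in the submitters' processing notes. Which counting tool, annotation and strand setting the authors used is not given in the sources used here. Deposited by the authors were counts for 208825 numbered parts of genes, named by RefSeq transcripts. The parts were summed to 21822 gene units, so a read across several parts may count more than 1 time. Reads outside genes (13.6% to 15.8% of all counts) and ambiguous reads (0.41% to 0.52%) were left out. Symbols came from RefSeq (GRCm38.p6) and GENCODE M21, which matched 97.1% of 27601 identifiers. GENCODE M21 also gave exon lengths and exons shared between genes, and the files' annotation may differ.

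The main test was edgeR 4.0.16 in R 4.3.3 (robust quasi-likelihood, TMM scaling, Benjamini-Hochberg adjustment over 14283 genes), after a filter at about 0.305 CPM in 2 libraries. Standard errors were derived from its F statistic. DESeq2 1.42.0, limma-voom (limma 3.58.1), other scalings and filters, single libraries left out and the largest part of each gene, alone or removed, were alternatives. Counting intervals and floors cover counting error only. Tested on simulated data for this comparison (14143 genes), edgeR found 70.7% of 99 genes with a 2-fold change and 90% of the 100 with a 4-fold change, beside 19 false calls. The simulated libraries were drawn independently, whereas deviations of same-numbered real libraries correlated at 0.605, so the error rate in the real data may differ. Duplicates varied beyond sampling noise (chi-square over degrees of freedom 37.2 without and 34.6 with Dox).

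The receptor genes, lists and tests were chosen with earlier results of these data known. Given with all values are called genes, those with an unadjusted p under 0.05 and the 2 with the highest level per kb in each class. Gria1, Grin1, Grin2a, Grin2b and Glra4 fall outside that rule and were chosen after their values were seen. From each list the called members are named or, with none, the 2 with the largest mean CPM. Results for some genes that this rule names are not reported here.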

Additional observations from a re-analysis of the deposited data

How the results depend on the processing

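Over the alternatives, Grin2c (log2 change 3.60 to 4.60) and Grm4 (2.38 to 2.77) were called in 13 of 13, Gria3 in 11 of 13 and Glra1 in 5 of 11. Some alternatives tested other sets of genes, so their medians and counts rest partly on other members. Other causes of the shifts below were not tested. Counts of all genes called higher (175) became 295 with no filter on low counts, 403 in DESeq2 and 73 without the largest part. Those called lower (8) became 16 with library totals, 46 with no filter, 116 in DESeq2, 14 with the largest part as the count and 0 without it. Receptor genes called higher (3) became 5 with no filter and 8 in DESeq2. Those called lower (1) became 2 with no filter and in DESeq2, and 0 with DESeq2 size factors, at a mean of 1 CPM or more, with the largest part as the count and without it. Genes of the 5 lists (0 and 0) became 1 higher with no filter, and 4 higher and 1 lower in DESeq2.

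The labels do not say whether same-numbered libraries of the 2 groups were made together, and the main test did not pair them. Deviations of same-numbered libraries correlated at 0.605 over all genes and 0.363 over receptor genes. With a replicate block 1047 genes were called higher and 869 lower, among them 11 and 4 receptor genes and 14 and 10 genes of the lists. Grik3, Grin2d, Gabrb2 and Grm6 were among the receptor genes called higher and Grm2 among those called lower.

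The median over receptor genes (0.37) was 0.52 with the largest part as the count (21 genes tested) and 0.30 without it (27 genes). With no filter the medians were 0.76 for 4 AMPA, 0.18 for 8 metabotropic and 0.42 for 5 glycine receptor genes. At a mean of 1 CPM or more they were 1.26 for 3 NMDA genes, 0.88 for 4 GABA-A genes and 0.40 for 1 glycine receptor gene (Glrb). With the largest part as the count they were 2.64 for 2 NMDA, 2.39 for 3 metabotropic and -0.30 for 7 GABA-A genes. For glycine the value was then 0.49, from Glrb alone. Without the largest part they were 0.72 for 4 NMDA, -1.32 for 3 metabotropic and -1.57 for 2 glycine receptor genes. The glycine median was -1.86 in DESeq2 and -1.69 with limma-voom. Gria2 turned to -0.04 with the largest part as the count. With its longest transcript as the length, Grm4 had a mean of 2.09 CPM per kb in place of 3.24.

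Leaving out 1 library at a time gave 276 to 283 genes called higher and 22 to 124 lower, 5 to 6 and 0 to 1 receptor genes, and 0 to 4 and 0 to 2 genes of the lists. Medians ranged from 0.23 to 0.52 for all receptor genes, -0.12 to 0.84 for AMPA, 0.26 to 0.81 for kainate, 0.21 to 1.28 for NMDA, 0.69 to 0.93 for metabotropic, -0.01 to 0.17 for GABA-A, 0.15 to 0.71 for GABA-B and -1.82 to 0.38 for glycine. These fits tested 3 or 4 AMPA, 5 or 6 NMDA and 2 or 3 glycine receptor genes. Gria2 ranged from -0.15 to 0.26, at -0.15 without no Dox replicate 2 and -0.12 when Dox replicate 1 was left out. Gabbr2 ranged from -0.20 to 1.16, and was below 0 without Dox replicate 1 and, at -0.02, when no Dox replicate 2 was left out.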
